A study of Mus musculus with 8 samples.

Results

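The stretch of mouse chromosome 15 that surrounds Pvt1 was followed probe by probe after Pvt1 was silenced. Its members were all gene probes of the array, named or not, whose mm9 coordinates started between 47000000 and 77000000 on chromosome 15, in order of position and strand. Probes of Myc, Sqle, Fbxo32, Med30 and Rad21 were left out, 7 probes of 5 genes. The remaining 492 probes, of 56605 on the array, carried 344 names, and 65 of them were named only by the interval of a large intergenic noncoding RNA (lincRNA). The forward strand held 218 probes and the reverse strand 274.

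The cells were C2C12, an immortalised mouse myoblast line that grows as single cells and can be made to fuse into myotubes. All 8 cultures were proliferating, at passage 10, and were transfected with Lipofectamine 2000. The 4 cultures of the control group received negative control GapmeRs, and the 4 cultures of the silenced group received the Pvt1 GapmeRs Pvt1_1 and Pvt1_3. GapmeRs are short antisense oligonucleotides with locked nucleic acid ends that direct RNase H to cut the RNA they pair with. The labels call the samples biological replicates, do not say which GapmeR a silenced culture received or whether it received both, and describe 1 cell line only. Total RNA was labelled with Cy3 and hybridised to 1-colour Agilent arrays.

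Pvt1 is a long noncoding RNA gene that lies next to Myc in mammals. The locus is known as a site of amplification in tumours and of retroviral insertion in mouse lymphomas, its RNA is spliced into many forms, and its promoter and transcripts have been studied for their bearing on the neighbouring gene. Further along the chromosome, towards the telomere, lie the matrix protein gene Wisp1, the focal adhesion kinase gene Ptk2, the Argonaute gene Ago2 and the cluster of Ly6 genes, which encode small surface or secreted proteins.

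The GapmeRs, given in the labels, each have 16 bases and are shown because they define the treatment. They read:
Pvt1_1: ACCGTAGTAGAGTTAA
Pvt1_3: AGTCAACGCTTCACAT
The reverse complements, which are the stretches of RNA that they pair with, are:
target of Pvt1_1: TTAACTCTACTACGGT
target of Pvt1_3: ATGTGAAGCGTTGACT
Neither target stretch occurred in any probe of the array, so no probe covered a target in full.

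The probes that carry the results on the unit are printed here, each 60 bases long and in the direction of the RNA it detects. They are those inside the Pvt1 unit, either named Pvt1 or by a lincRNA interval, that were well above background on at least 1 array. The Pvt1 unit is here the span of the 5 probes named Pvt1, chr15:61512367-62209651, which holds 18 of the 492 probes. Probes of Myc, left out of the region, are not counted. The first of the 5 starts 495 kb before the next, so distances are counted from probes and not from an annotated gene. The first pair shares 28 bases, in capitals, and so cannot count as independent measurements. In the third, capitals mark AATAAA, the letters of the common poly(A) signal.
A_30_P01025687: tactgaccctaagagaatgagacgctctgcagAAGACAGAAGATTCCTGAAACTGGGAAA
A_55_P2728966: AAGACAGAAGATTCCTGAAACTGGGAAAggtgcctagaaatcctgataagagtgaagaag
A_55_P2051254: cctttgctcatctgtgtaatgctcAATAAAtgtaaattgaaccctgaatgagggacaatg
A_30_P01029551: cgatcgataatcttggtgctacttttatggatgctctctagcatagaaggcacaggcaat
A_30_P01028541: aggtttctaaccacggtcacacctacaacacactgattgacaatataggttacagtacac
A_30_P01031174: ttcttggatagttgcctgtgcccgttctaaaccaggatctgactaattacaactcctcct
A_30_P01017939: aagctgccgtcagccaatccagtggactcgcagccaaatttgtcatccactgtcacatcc
The last of these was designed to the reverse strand, opposite to Pvt1, and the others to the forward strand, on which Pvt1 is transcribed. No mm9 annotation was used, so the exon or intron that holds each probe was not analysed here.

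Spots that were not positive and significant over background had no value, and 283 of the 492 probes had the 3 values per group that a test needed. Of the 209 others, 98 were positive on no array. Values are log2 processed signals after quantile normalization and are listed in the order of replicates 1 to 4. Changes are silenced minus control with their standard error (SE), from limma fitted over all 28649 tested probes of the array with 4 arrays per group, and a probe was called at a Benjamini-Hochberg adjusted p under 0.05. The arrays lay on 1 slide. Silenced replicate 4 was the dimmest array, with 51.6% of spots positive and significant against 58.8% to 62.5% on the other 7, and control replicate 3 correlated least with its own group (0.960 against 0.980 to 0.986 on the others).

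Pvt1 RNA fell on every Pvt1 probe that could be tested. In RNA from whole cultures, less RNA per cell and fewer cells that carry it cannot be told apart. The Pvt1 probe A_55_P2051254, at chr15:62081020-62081079, read 9.65, 9.79, 10.31 and 9.70 in the control cultures and 7.09, 6.69, 7.85 and 6.39 in the silenced cultures. It was well above background on all 8 arrays, and the groups did not overlap. The change was -2.86 ± 0.32 (SE), a 7.27-fold fall with a limma adjusted p of 0.000682. An exact two-sided permutation test of the 4 against 4 arrays gave p = 0.0286, the smallest that this design allows. Within the slide rows the change was -2.83 on row 1, which held 1 silenced and 3 control arrays, and -2.73 on row 2, which held 3 silenced arrays and 1 control array.

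The neighbouring Pvt1 probe A_55_P2728966, at chr15:62074057-62074116, read 8.18, 8.57, 8.96 and 8.71 in control cells. It read 4.71, 4.92 and 4.77 in silenced cells and had no value on silenced replicate 4. It was well above background on every control array and on no silenced array, so the fold is a bound of at least 5.41-fold lower (limma adjusted p = 0.00013). Such bounds set the mean of the bright group against, for each array of the dim group, the higher of its own signal and the lowest signal that was well above background on that array. Its overlapping partner A_30_P01025687 had only 2 values in silenced cells, was not tested, and gave a bound of at least 5.62-fold lower.

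Another 3 forward probes lay downstream of these, each named by a lincRNA interval. The most distal, A_30_P01031174 at chr15:62091556-62091615, belongs to the interval chr15:62090565-62091770. It read 8.01, 8.38, 8.79 and 8.31 in control cells and 4.94, 5.13, 6.02 and 4.70 in silenced cells, without overlap, at least 4.62-fold lower (limma adjusted p = 0.000445). A_30_P01029551, at chr15:62086046-62086105, read 7.98, 8.44, 8.40 and 8.42 in control cells, had no positive value in silenced cells and was at least 4.42-fold lower. A_30_P01028541 read 5.28 to 6.32 in control cells, well above background on 2 of the 4 arrays, and had no value in silenced cells. All 6 forward probes that were well above background on a control array thus lay within chr15:62074025-62091615, and each was dimmer or without a value on all 4 silenced arrays.

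The rest of the unit gave little signal on the forward strand. A probe at chr15:61870890-61870949, in the lincRNA interval chr15:61870759-61938796, was positive on 4 control arrays (6.02, 6.12, 4.37 and 5.88) and 2 silenced arrays (4.67 and 4.07), and was well above background on none. Of the other 5 forward probes, 2 were positive on no array. The remaining 3, all named Pvt1, were positive on 1, 2 and 5 arrays and well above background on none, and they lie at both ends of the unit and in its middle. At these probes a change was not detectable.

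On the reverse strand of the unit 1 of 4 tested probes fell. A_30_P01017939, at chr15:62050056-62050115, read 6.17, 6.62, 5.18 and 6.75 in control cells and 5.01, 4.33, 4.73 and 4.62 in silenced cells. The groups did not overlap, and the change was -1.51 ± 0.34 (SE, limma adjusted p = 0.0125). It was well above background on 3 control arrays only, and the call was lost with normexp background correction, without masking and with the methods' t-test. H2afy3, named for the macroH2A histones and read on the reverse strand at chr15:62049165-62049224, within 1 kb of it, read 10.95, 10.93, 11.05 and 11.00 in control cells. In silenced cells it read 11.31, 11.30, 11.81 and 9.84, with a change of 0.08 ± 0.37 (limma adjusted p = 0.904). Silenced replicates 1 to 3 were above every control array and replicate 4, the dim one, was below them. The probes of D030024E09Rik and of the reverse interval chr15:61919018-61935580 were not called, and AK179413 was positive on all 4 control arrays and no silenced array without being well above background on any.

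**Figure D1:**
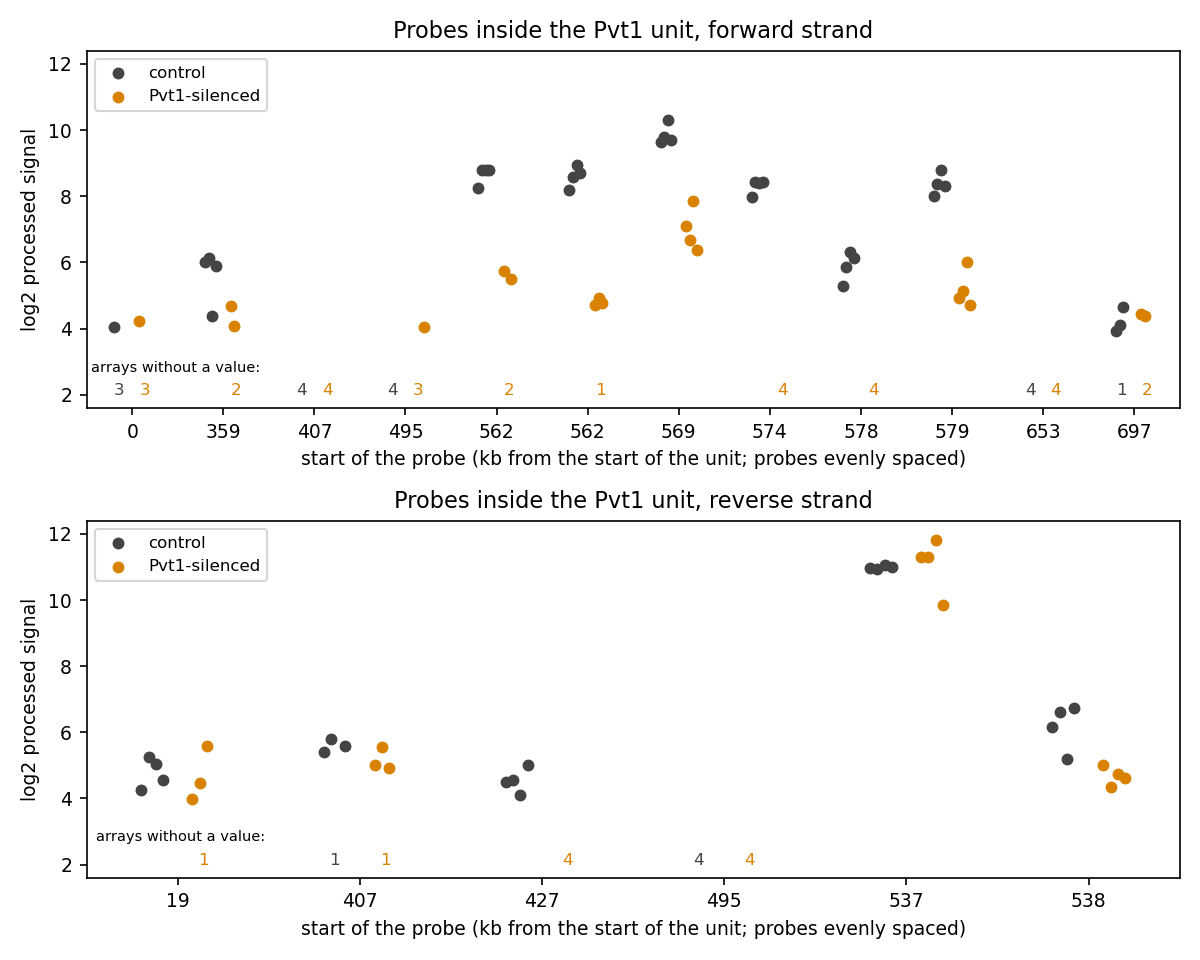
Log2 processed signal on each array for the 12 forward (top) and 6 reverse (bottom) probes inside the Pvt1 unit, ordered by position, with the number of arrays that had no value written under each probe. The 6 forward probes from 562 to 579 kb are higher on all control arrays than on any silenced array with a value, and H2afy3, at 537 kb on the reverse strand, overlaps between the groups.

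Among the probes kept, there was almost nothing to compare next to the unit. Myc, which lies next to Pvt1, had been left out and is not counted here. Within 1 Mb of its ends lay 17 probes, of which 2 were tested and none was called. Fam84b, the nearest tested gene on the centromeric side, read 4.62, 5.55 and 5.02 on the 3 control arrays with a value and 5.13, 5.02, 5.96 and 4.38 in silenced cells, with a change of 0.06 ± 0.39 (limma adjusted p = 0.934). The lincRNA probe of chr15:62593629-62970549 on the reverse strand changed by 0.47 ± 0.35 (limma adjusted p = 0.365). Neither was well above background on more than 1 array, and no probe among the 17 was well above background on 2 or more arrays.

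Across the whole region 53 tested probes were called lower, 18.7% of 283, against 18.4% of all tested probes of the array. Called higher were 28, or 9.89%, against 4.79% on the array. In either direction these made 81 calls, where 23.2% of the array was called. The median change was -0.22 in the region and -0.19 over all tested probes. The share called lower was thus near that of the array, and the share called higher was above it. No test was made of either difference. Of forward probes 18.6% were called lower, and of reverse probes 18.8%. The groups did not overlap at 64 lower and 27 higher probes of the region, where the background on the array was 22.6% and 5.61%, or 28.2% in either direction. The slide rows held unequal numbers of the groups, and with slide row as a block 28 probes of the region were called lower and 11 higher, while the calls on the whole array fell to 8.98% lower and 1.86% higher.

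The balance of directions depended on how the arrays were scaled. With cyclic loess in place of quantile normalization, 47 probes of the region were called lower and 74 higher, against 18.4% and 18.9% of the array, so that 38.8% of called probes were lower and not 65.4%. On the whole array that split moved from 79.3% to 49.3%. The median change over the array moved from -0.19 to 0.02 and that over the region to 0.01. A 75th percentile shift moved the array's median to 0.16, and that of the region to 0.16 too, so the region's median kept close to that of the array under both scalings. Of the calls made with quantile normalization, 45 of the 53 lower and all 28 higher were also made with cyclic loess.

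**Figure D2:**
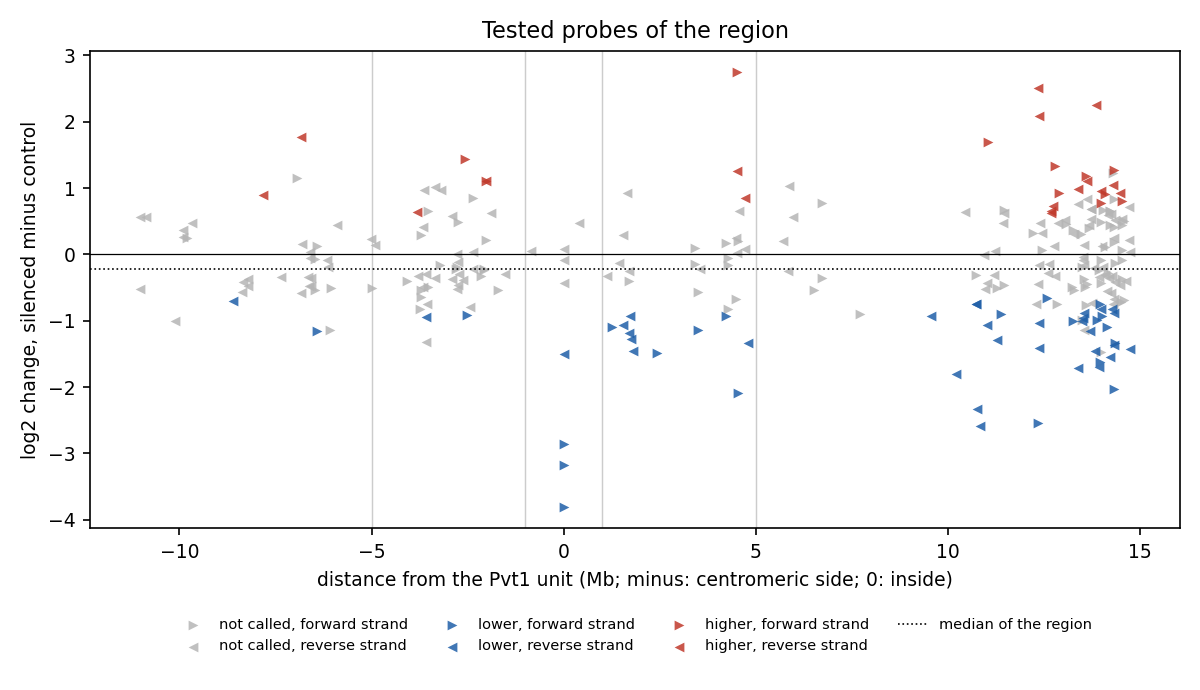
Change (log2, silenced minus control) of the 283 tested probes against distance from the Pvt1 unit in Mb, coloured by call and pointing along their strand. The 3 probes below -2.8 at distance 0 are those of the Pvt1 unit, and called probes in both directions lie up to 15 Mb away. Plotted values of A_55_P2728966 and A_30_P01031174 are uncertain in size, since no silenced array was well above background there.

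By distance, the calls are set here beside the array's 18.4% lower and 4.79% higher. Inside the unit 4 of 7 tested probes were called lower. On the telomeric side 11 of 34 were lower (32.4%) and 3 higher at 1 to 5 Mb, and 34 of 157 were lower (21.7%) and 19 higher (12.1%) at 5 Mb or more. On the centromeric side 2 of 48 were lower (4.17%) and 4 higher (8.33%) at 1 to 5 Mb, and 2 of 35 were lower and 2 higher (5.71% each) at 5 Mb or more. The medians outside the unit differed little, from -0.22 and -0.19 on the centromeric side to -0.23 and -0.18 on the telomeric side. These classes hold different genes and were not tested against each other.

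**Figure D3:**
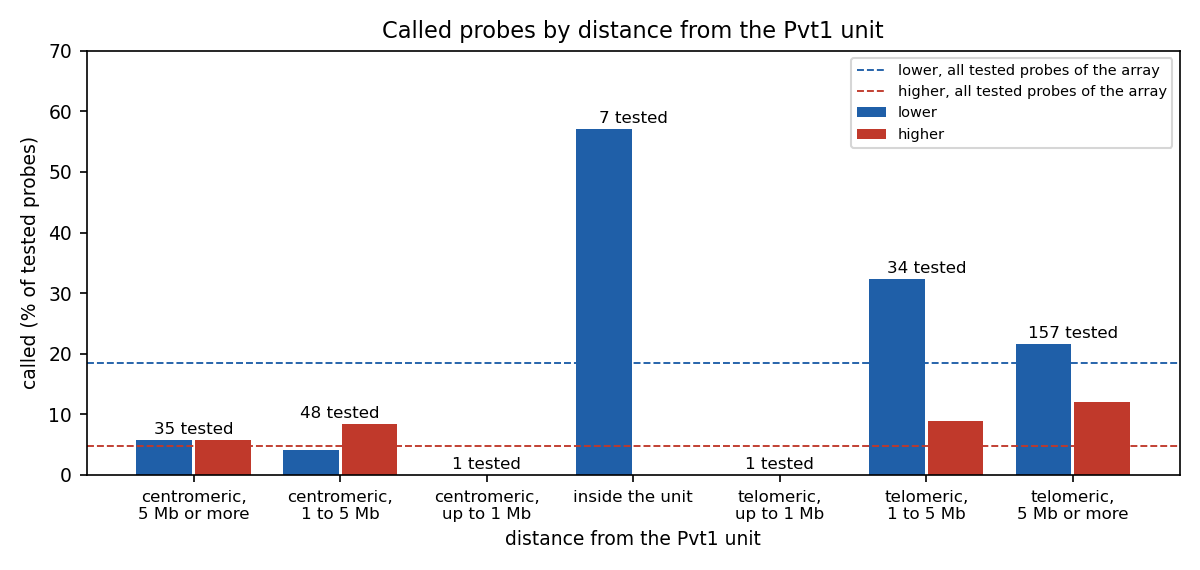
Share of tested probes called lower and higher in each class of distance from the Pvt1 unit, with the number tested above the bars and dashed lines for all tested probes of the array (18.4% lower and 4.79% higher). The classes up to 1 Mb outside the unit hold 1 tested probe each, with no call.

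Within 5 Mb of the unit on the telomeric side the lower calls included Wisp1, Gm30752 and Asap1. Asap1 encodes a GTPase-activating protein for Arf that acts at focal adhesions. Its probe at chr15:64022769-64022828 read 9.83, 9.88, 10.07 and 10.10 in control cells and 8.67, 8.66, 8.61 and 8.11 in silenced cells, a change of -1.46 ± 0.20 (limma adjusted p = 0.00156). Another Asap1 probe changed by -1.19, and the one nearest to the 3′ end by -0.25 without a call. A probe named AK053501, which lies between them at chr15:63950863-63950922, read 6.51, 7.09, 6.38 and 7.19 in control cells and 5.93, 5.71, 5.42 and 5.0 in silenced cells, at least 1.54-fold lower. Gm30752, a predicted gene further on, changed by -1.49, a call lost with the slide row as a block, without masking and with the methods' t-test.

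One of the rises lay in the forward probe of the lincRNA interval chr15:66682293-66722977, just upstream of Wisp1. It read 5.41, 5.36, 4.32 and 5.26 in control cells and 7.93, 8.07, 8.30 and 7.03 in silenced cells, without overlap. Every silenced array and none of the control arrays was well above background, which gives a bound of at least 3.42-fold higher, with a fitted change of 2.74 ± 0.34 (limma adjusted p = 0.000988). The interval also has a reverse probe within 1 kb of it, whose sequence is printed with it because both strands rose:
A_30_P01027097 (forward): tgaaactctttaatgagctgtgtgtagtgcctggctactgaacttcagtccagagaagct
A_30_P01029219 (reverse): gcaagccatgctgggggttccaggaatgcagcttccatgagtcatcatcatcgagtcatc
The reverse probe read 7.43, 7.52, 8.34 and 7.57 in control cells and 9.01, 9.06, 9.47 and 8.34 in silenced cells. Its change was 1.26 ± 0.30 (limma adjusted p = 0.0151), and control replicate 3 and silenced replicate 4 met at 8.34. The call was lost with the slide row as a block, with the methods' t-test and without control replicate 2 or 4. The other forward and reverse probes of the interval stayed under the well-above-background level throughout and were not called.

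Of 8 lincRNA intervals of the region with probes on both strands, 4 had a call. Besides the interval near Wisp1 and the one inside the unit, the reverse probe of chr15:73227424-73257474 fell by 1.06 on the log2 scale (limma adjusted p = 0.0242), a call lost under 5 alternative settings, among them leaving out control replicate 2 or 4, while its forward probe was positive on 1 array. The reverse probe of chr15:73455424-73477275 was at least 1.66-fold lower, a call lost under 10 alternative settings, among them leaving out control replicate 2 or 4 or any silenced replicate, and its forward probe was positive on 4 arrays only. On the array as a whole 15.3% of tested lincRNA interval probes were called lower and 5.22% higher. Among the 21 tested ones of the region, 5 were lower and 4 higher.

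In the region 10 probes were well above background on all control arrays and on no silenced array, where the array's share was 0.927%, and 3 showed the reverse, where it was 0.152%. The 10 were the 4 forward probes of the Pvt1 unit with a bound, AK053501, Ago2, Lypd2, 4930551A22Rik, BM942098 and the reverse probe of chr15:73455424-73477275. The RIKEN transcript 4930551A22Rik read 7.67, 8.35, 6.37 and 8.16 in control cells and 5.90, 6.23, 5.78 and 5.81 in silenced cells, at least 2.68-fold lower (limma adjusted p = 0.0137). The expressed sequence BM942098 was at least 1.48-fold lower, a call lost under 8 alternative settings, among them leaving out control replicate 1, 2 or 4. The 3 in the other direction were the forward lincRNA probe near Wisp1, Lynx1 and Ly6g.

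Among genes positive on all 8 arrays, 7 besides Pvt1 led the falls. Ptk2 encodes focal adhesion kinase, which relays signals from integrins. Its probe at chr15:73046410-73046469 read 9.94, 10.20, 9.94 and 10.16 in control cells and 7.61, 8.02, 6.86 and 7.41 in silenced cells, a 5.99-fold fall (change -2.58 ± 0.26, limma adjusted p = 0.000488). The groups did not overlap. Them6, of the thioesterase superfamily, read 8.95, 9.55, 8.06 and 9.27 in control cells and 7.03, 7.50, 7.05 and 4.12 in silenced cells. Its change of -2.54 ± 0.68 (limma adjusted p = 0.0249) came with a very low silenced replicate 4. The call was kept without that array and lost without control replicate 1, 2 or 4, under the slide row block and by the methods' t-test.

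Ago2, the Argonaute that cleaves target RNA, fell on all 3 of its tested probes. At chr15:72949822-72949881 it read 7.62, 8.28, 6.36 and 8.24 in control cells and 5.32, 5.42, 5.29 and 5.15 in silenced cells, at least 2.75-fold lower (limma adjusted p = 0.00348), while the other probes both changed by -0.74, calls that were lost under 9 and 13 alternative settings, among them leaving out control replicate 2 or 4 or silenced replicate 1 or 3. Wisp1, a matricellular protein of the CCN family, read 8.54, 8.61, 8.0 and 8.88 in control cells and 7.02, 6.74, 6.01 and 5.90 in silenced cells on the probe at chr15:66744444-66744503. That change was -2.09 ± 0.31 (limma adjusted p = 0.00201). Ppp1r16a, a regulatory subunit of protein phosphatase 1, read 8.70, 9.06, 8.49 and 9.14 in control cells and 6.57, 7.01, 6.65 and 7.03 in silenced cells, a change of -2.03 ± 0.23. On the probes whose values are listed for these 3 genes, no silenced array reached the lowest control array.

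Trappc9, a subunit of a complex that tethers vesicles at the Golgi, read 11.31, 11.52, 11.79 and 11.47 in control cells and 9.74, 10.02, 9.96 and 9.16 in silenced cells. It changed by -1.80 ± 0.24 (limma adjusted p = 0.00127). Mafa, a transcription factor best known from the insulin-producing cell, read 11.24 to 11.66 in control cells and 9.41 to 10.08 in silenced cells and changed by -1.72 ± 0.22 (limma adjusted p = 0.00112). On these probes the calls on Ptk2, Wisp1, Ppp1r16a, Trappc9 and Mafa held under all 19 alternative settings, and that on Ago2 under all but the methods' t-test. Other probes of 3 of these genes were not called, with changes of 0.21 for Wisp1, 0.41 for Ppp1r16a, and -0.00 and -0.52 for Ptk2. In Wisp1 and Ppp1r16a the uncalled probe lay nearer the 3′ end, and on the whole array the probe nearer the 3′ end had the more positive change in 79.4% of transcript records with several tested probes. Its part in these falls was not tested.

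Among the largest rises, Parp10 was measured well above background on all 8 arrays. It encodes a mono-ADP-ribosyltransferase that interferon is known to induce. It read 8.40, 8.83, 9.22 and 9.0 in control cells and 11.15, 11.01, 11.58 and 10.69 in silenced cells, without overlap, a 4.74-fold rise (change 2.24 ± 0.26, limma adjusted p = 0.000743). Enpp2 encodes autotaxin, which makes lysophosphatidic acid. One of its 3 tested probes read 5.94, 6.64, 7.09 and 6.50 in control cells and 8.63, 8.46, 8.68 and 7.50 in silenced cells and rose by 1.77 ± 0.33 (limma adjusted p = 0.00542), while the other 2, dimmer than the well-above-background level on all arrays, were not called.

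Gpt, the alanine aminotransferase, rose on the probe nearer its 3′ end, from 10.06 to 10.77 in control cells to 11.33 to 11.86 in silenced cells (change 1.28 ± 0.23, limma adjusted p = 0.00435). Zfp707, a zinc finger gene, rose by 1.18 ± 0.31 (limma adjusted p = 0.0227), with groups that overlapped, while its other probe changed by -0.76 ± 0.58 without a call. The call on Zfp707 was lost without control replicate 1, 2 or 4 or silenced replicate 1 or 3. LOC497255 rose by 1.69 ± 0.37 (limma adjusted p = 0.01), but it was well above background on 1 array only. Slurp1, Lynx1 and Ly6g, the remaining members of this set, belong to the Ly6 cluster.

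Markers of other cells moved with the groups, and their part in these rises was not tested. Of 6 liver genes (Alb, Mup1, Apoa1, Ttr, Serpina1a and Fabp1) none was well above background on any control array and 4 were so on all silenced arrays. The log2 of their summed signals was 6.44 to 6.73 on the control arrays and 11.77 to 12.18 on the silenced arrays, with Apoa1 below background throughout. Of 3 blood genes Cd68 rose by 1.84 and Ptprc and Hba-a1 were not called, and all 3 were well above background on every array, with log2 sums of 13.54 to 14.05 and 14.40 to 14.75. None of Pecam1, Cdh5 and Kdr, markers of endothelium, was well above background on any array. Among 6 myoblast genes Myod1, Des and Cdh15 were well above background on all arrays and were called lower, Pax7 was well above background on all arrays (change 0.02) and Myog on 7 of 8 (change 0.13), neither called, and Myf5 was not well above background on any (change 0.94, not called). The log2 sums were 15.76 to 15.80 in control cells and 14.36 to 15.10 in silenced cells. Tg, which encodes thyroglobulin and lies in the region, was well above background on 3 control arrays and no silenced array and was not called.

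The Ly6 genes encode small proteins with a characteristic disulphide-rich fold, most of them anchored to the cell surface. All 16 genes of the list had a probe, 11 were tested on their probe with the highest mean, and of these 5 rose and 2 fell, or 45.5% and 18.2%, while the median change was -0.14. Over all tested probes of the array 4.79% were called higher and 18.4% lower, with a median change of -0.19, and the members were chosen with results known, so the shares are a description. Slurp1, a secreted member, read 4.81, 5.84, 6.58 and 5.51 in control cells and 8.49, 8.18, 8.74 and 7.37 in silenced cells (change 2.51 ± 0.41, limma adjusted p = 0.00296). Only 1 of its 4 control values was well above background, so the size of that change is uncertain. Lypd2, its neighbour within 6 kb, went the other way. It read 7.09, 7.28, 7.50 and 7.17 in control cells and 5.54, 6.10, 6.24 and 5.50 in silenced cells, at least 2.09-fold lower (limma adjusted p = 0.0032).

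Lynx1, a membrane-anchored modulator of nicotinic acetylcholine receptors, differed between its probes. The probe at chr15:74582751-74582810 read 4.84, 4.72, 5.34 and 5.31 in control cells and 7.41, 7.17, 7.56 and 6.41 in silenced cells, at least 2.12-fold higher (limma adjusted p = 0.0015). The other probe, at chr15:74578434-74578493 and designed to another transcript record, changed by -0.16 ± 0.27 without a call. Ly6g, known as a surface marker of neutrophils, read 5.15, 6.20, 5.78 and 5.51 in control cells and 7.46, 7.35, 6.81 and 6.33 in silenced cells, at least 1.86-fold higher (limma adjusted p = 0.0152). Its probe shares a run of 28 bases with that of an unnamed transcript in the cluster, which changed by 0.47 without a call. The call on Ly6g was lost without control replicate 4 and with the methods' t-test.

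In the middle of the cluster the changes were smaller and ran in both directions. Ly6c2 read 14.37, 14.75, 15.02 and 14.79 in control cells and 15.51, 15.48, 15.51 and 15.35 in silenced cells and changed by 0.73 ± 0.20 (limma adjusted p = 0.0267). Ly6c1 changed by 0.66 and 0.62 on its 2 probes, the first of which shares a run of 48 bases with the Ly6c2 probe, so these 2 genes cannot be told apart there. Ly6f changed by 0.92 ± 0.26. Ly6e read 14.95 to 15.13 in control cells and 13.96 to 14.67 in silenced cells and changed by -0.66 ± 0.21 (limma adjusted p = 0.0445), and Ly6a, also called Sca-1, changed by -0.14 ± 0.20 without a call. The calls on Ly6c1, Ly6c2, Ly6f and Ly6e were each lost under 8 or more of the 19 alternative settings, and none of them changed direction. Those on Ly6c1, Ly6c2 and Ly6f were lost without any single array other than control replicate 3 or silenced replicate 4, and that on Ly6e without any other than silenced replicate 4.

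**Figure D4:**
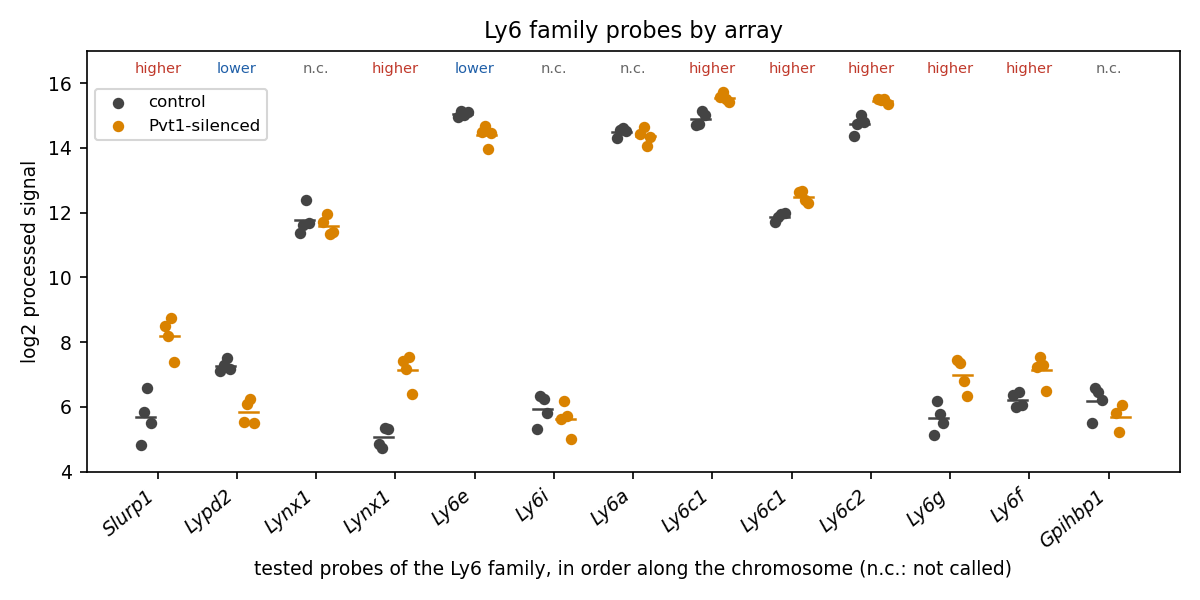
Log2 processed signal on each array for the 13 tested probes of the Ly6 family, in order along the chromosome, with bars at the group means and the call above each. Slurp1, the distal Lynx1 probe, Ly6g and, by less, Ly6c1, Ly6c2 and Ly6f lie higher in the silenced cultures without overlap, and Lypd2 and Ly6e lie lower.

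The genes outside the Ly6 cluster are described by function, each on its probe with the highest mean. Their counts stand beside the array's 18.4% lower, 4.79% higher and median change of -0.19. Of 12 tested genes for translation and RNA processing 4 fell (Ago2, Cpsf1, Puf60 and Exosc4) and 1 rose, or 33.3% and 8.33%, with a median change of -0.16. Cpsf1, the largest subunit of the factor that recognises the poly(A) signal, read 12.05, 12.17, 12.72 and 12.30 in control cells and 10.84, 11.40, 10.39 and 10.44 in silenced cells and changed by -1.54 ± 0.27 (limma adjusted p = 0.00434). Puf60, a splicing factor, changed by -1.15 ± 0.21, and Exosc4, a subunit of the RNA exosome, by -0.75 ± 0.21. Zc3h3, a zinc finger protein of mRNA export, rose by 0.99 ± 0.20. Eef1d, Eif3h, Bop1, Mrpl13, Khdrbs3, Utp23 and Trmt12 were not called.

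Among 16 tested genes of signalling, adhesion and cytoskeleton 4 fell and 1 rose, or 25% and 6.25%, with a median change of 0.05. The falls were Ptk2, Asap1, the mTOR inhibitor Deptor (change -1.16 ± 0.22, limma adjusted p = 0.0059) and the phosphatase Ptp4a3 (change -0.91 ± 0.28, limma adjusted p = 0.0452), and the rise was Sharpin. The call on Ptp4a3 was lost under 14 alternative settings, among them leaving out any single array but silenced replicate 4. Other probes of Deptor changed by -0.07 and 0.13 without a call. Trib1, a pseudokinase gene on the centromeric side within 5 Mb of the unit, was not called on its brightest probe (change 0.21 ± 0.22). Another forward probe read 8.45, 8.76, 9.05 and 8.63 in control cells and 9.96, 9.85, 10.48 and 9.06 in silenced cells and was called higher (change 1.11 ± 0.30, limma adjusted p = 0.0257), with the lowest silenced and highest control arrays nearly equal. A reverse probe at Trib1, dimmer than the well-above-background level on all arrays, was also called higher. These calls were lost under 8 and 7 alternative settings, among them leaving out control replicate 2, and the forward one also without control replicate 1 or 4 or silenced replicate 1, 2 or 3. Of 12 genes of trafficking and protein turnover 3 fell and 2 rose, or 25% and 16.7%, with a median change of -0.08. Gpaa1, a subunit of the enzyme that attaches lipid anchors to surface proteins such as those of the Ly6 family, fell from between 12.05 and 12.39 in control cells to between 10.35 and 10.79 in silenced cells (change -1.63 ± 0.19, limma adjusted p = 0.000862). Trappc9 and Grina (change -0.99 ± 0.21) fell too. Commd5 rose by 0.81 ± 0.18, and Derl1, which takes part in the removal of misfolded proteins from the endoplasmic reticulum, by 0.64. The call on Grina was lost with the slide row as a block, that on Commd5 with the slide row or the replicate number as a block, and that on Derl1 under both and without any single array but silenced replicate 4.

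Of 16 transcription factor and chromatin genes 2 fell and 2 rose, or 12.5% each, with a median change of 0.29. Hsf1, the master regulator of the heat shock response, read 13.15, 13.35, 13.60 and 13.43 in control cells and 12.33, 12.50, 12.03 and 12.27 in silenced cells and changed by -1.10 ± 0.20 (limma adjusted p = 0.00456). Mafa was the other that fell, and Zfp707 and Zfp251 (change 0.92 ± 0.24, not called without control replicate 1, 2 or 4 or silenced replicate 1) were those that rose. Of 8 genes of DNA replication and repair only Atad2, a bromodomain ATPase, was called (change -0.95 ± 0.19, limma adjusted p = 0.0071), while its other 3 probes changed by -1.32, -0.30 and -0.74 without a call, and the median change was -0.40. Nsmce2, Dscc1, Tonsl, Recql4, Mtbp, Chrac1 and Tatdn1 were not called on their probe with the highest mean.

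Of 8 tested genes on the mitochondria list, which also holds enzymes of amino acid metabolism, Gpt rose and Pycrl, of proline synthesis, fell. Pycrl changed by -0.88 ± 0.24 (limma adjusted p = 0.0254), and the median change over the list was 0.11. Ndufb9 and Cyc1, of respiratory complexes I and III, Mrpl13, Top1mt, Adck5 and Tmem65 were not called. Of 7 tested matrix and glycan genes 2 fell and 1 rose, or 28.6% and 14.3%, with a median change of 0.08. Enpp2 rose, Ext1, which builds heparan sulphate chains, changed by -0.70 ± 0.22 (limma adjusted p = 0.0430), and the collagen gene Col22a1 by -0.92 ± 0.27, on a probe that never reached the well-above-background level. The calls on Pycrl, Ext1, Col22a1 and Exosc4 were each lost under 10 or more alternative settings, among them leaving out control replicate 4 or silenced replicate 1 or 3. Has2, which makes hyaluronan, Has2os, St3gal1 and Wisp1 were not called on their brightest probe.

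Probes of one transcript often differed by their position in it. In the region 35 transcript records had 2 or more tested probes, and in 27 of them, 77.1%, the probe nearest the 3′ end had a more positive change than the one nearest the 5′ end. The median difference over the 35 was 0.90, in fitted changes that for dim probes are uncertain in size. On the whole array the share was 79.4% of 4145 records, with a median of 0.58. The region's share was near that of the array. The difference was largest in Ppp1r16a and next in Wisp1. In Wisp1 the probe starting at base 575 changed by -2.09, and that at base 1815 read 13.14, 13.37, 13.44 and 13.33 in control cells and 13.68, 13.39, 13.95 and 13.10 in silenced cells, a change of 0.21 ± 0.23 without a call.

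Recql4, a DNA helicase, had 4 tested probes on 1 record. In order from the 5′ to the 3′ side, the probes starting at bases 3370, 3464, 3674 and 3861 changed by -1.36, -0.88, -0.67 and 0.25, of which the first 2 were called. The second of these calls was lost under both blocks and without control replicate 2 or 4 or silenced replicate 3. In Ppp1r16a the probe at base 1651 changed by -2.03 and that at base 2551 by 0.41 without a call. Ptk2 ran the other way when its records were put together: the called probe lay nearest the 3′ end on the map, and the probes upstream of it changed by -0.00 and -0.52 without a call.

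**Figure D5:**
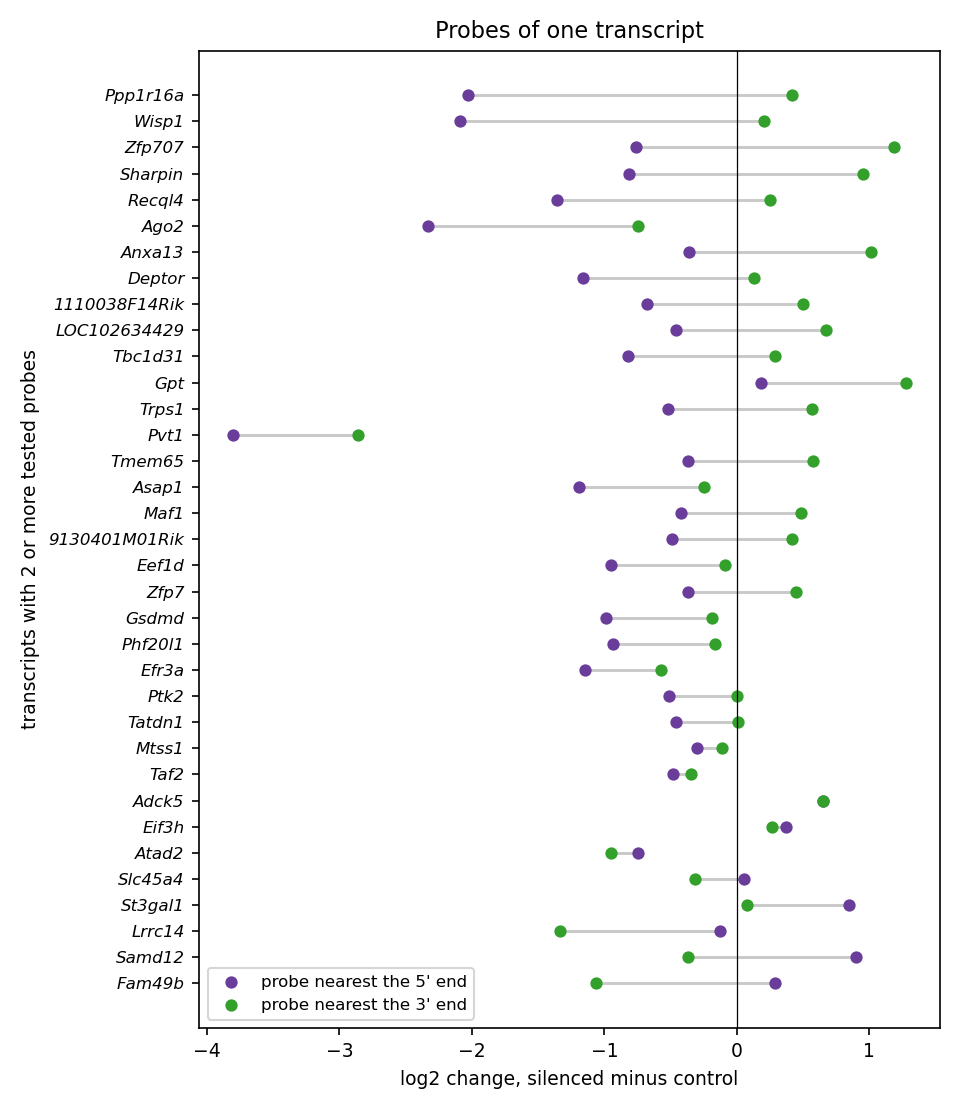
Change (log2, silenced minus control) of the tested probes nearest the 5′ and the 3′ end of 35 transcript records, ordered by the difference between them. In 27 records the 3′ probe lies to the right, by up to 2.45 in Ppp1r16a, and the Pvt1 record is among them with a 5′ value that is only a bound, since no silenced array was well above background there.

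Probes of 3 genes were called in opposite directions. Sharpin, a subunit of the ubiquitin ligase complex that makes linear chains, changed by -0.82 ± 0.24 at base 968 and by 0.96 ± 0.19 at base 1673 of the same record. St3gal1, a sialyltransferase, changed by 0.85 ± 0.26 at chr15:66937894-66937953 and by -1.33 ± 0.25 at chr15:67006418-67006477. Cyhr1 changed by 1.04 ± 0.24 and by -0.83 ± 0.24 on probes of different records. The lower calls of Sharpin and Cyhr1 and the higher call of St3gal1 were each lost under 9 or more alternative settings, among them leaving out control replicate 2 or 4 or silenced replicate 1 or 3. Among 56 genes of the region with 2 or more tested probes 26 had no call, 17 had only lower calls, 10 only higher calls and 3 opposite calls, or 46.4%, 30.4%, 17.9% and 5.36%. Over the 6259 such genes of the array the shares were 51.8%, 39.8%, 6.49% and 1.85%, and no test was made of the differences. In 3 genes, Pvt1, Ago2 and Ly6c1, every tested probe was called.

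The letters of a poly(A) signal, AATAAA or ATTAAA, were searched on the printed strand of each probe. They were held by 71 of 492 probes of the region, 14.4%, against 13.4% of the array. Of the 53 probes called lower 3 held them, or 5.66%, among them the Pvt1 probe A_55_P2051254. Of the 28 called higher 10 did, or 35.7%. The same shares over the called probes of the whole array were not computed, so the contrast cannot be read as a trait of the region.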

How the data were processed

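RNA of 8 C2C12 cultures was hybridised to 1-colour arrays. The deposited files hold scanner intensity values. The labels name Feature Extraction 10.7.3.1 and the file headers 12.0.0.7, and flag and signal columns are as that software wrote them. A deposited series table of normalized intensity served as an alternative. Processed signals of spots that were not positive and significant, or were outliers, were set to missing, log2 transformed and quantile normalized, spots of a probe were averaged, and probes with at least 3 of 4 values per group were fitted with limma 3.58.1 (lmFit, eBayes) in R 4.3.3, with Benjamini-Hochberg adjustment over 28649 probes. Arrays were grouped by their labels. Their number limits the precision. On simulated data with 200 of 28649 probes changed, 71% of changes of size 2 and 16% of size 1 (log2) were recovered. The data themselves had 6642 calls, so these rates do not carry over to them directly. Members and lists were chosen with earlier results of these data known. Named were probes inside the Pvt1 unit or tested within 1 Mb, the 8 largest falls and rises with a symbol, probes well above background in 1 group only, opposite calls, strand pairs and the leading genes of each list, with the brightest probe by mean standing for a gene. Recql4, other probes of a named gene, the further Ly6 genes, Ptp4a3, Derl1, Trib1 and Gm30752 were chosen after their values were seen. Of 285 names other than intervals, 204 were RefSeq symbols of GRCm38.p6. Alternatives were a 75th percentile shift, cyclic loess, normexp, the series table, no masking, stricter filters, replicate and slide row blocks, the methods' t-test, a robust trended prior and leaving out each array. P-values measure the spread between these cultures. Other steps used Python 3.11.15 and scipy 1.17.1. One marker result is not reported here.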

Additional observations from a re-analysis of the deposited data

Results flagged for a closer look

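Among 149 groups of 4 values of the named probes, 12 held an array far from the other 3, by the gap to its nearest neighbour as a share of the whole range, where chance flags about 1 group in 20. The fourth silenced array was the low one in 6 of them. Them6 read 4.12 there against 7.03 to 7.50 on the others (share 0.862), BM942098 4.96 against 5.91 to 6.06 (0.867), Gpt 11.33 against 11.83 to 11.86 (0.935), Ly6c2 15.35 against 15.48 to 15.51 (0.853), the Asap1 probe A_55_P2737412 8.11 against 8.61 to 8.67 (0.892) and the brightest Trib1 probe 10.96 against 11.35 to 11.42 (0.857). The third control array stood apart in 4. It was high for the same Trib1 probe, with 11.51 against 10.87 to 10.98 (0.831). It was low for the lincRNA probe A_30_P01031088 inside the Pvt1 unit, with 4.37 against 5.88 to 6.12 (0.861). In the interval chr15:66682293-66722977 it was low on the forward probe, with 4.32 against 5.26 to 5.41 (0.861), and high on the reverse probe, with 8.34 against 7.43 to 7.57 (0.847). The first control array was low for A_30_P01025687, with 8.24 against 8.79 to 8.81 (0.965), and for A_30_P01029551, with 7.98 against 8.40 to 8.44 (0.907), both inside the Pvt1 unit.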

How the results depend on the processing

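The fall of the Pvt1 probe A_55_P2051254 was called under the 18 alternatives in which it had a value, and ranged from -3.12 to -2.69 when single arrays were left out, against -2.52 with cyclic loess and -2.19 with normexp. None of the 63 called probes that were named and followed through these settings changed direction. Counts moved. The region's 53 lower calls became 28 with slide row as a block and 27 with the methods' t-test, and its 28 higher calls became 87 with a 75th percentile shift, 74 with cyclic loess, 59 with the authors' series table, 66 without masking, 11 with the slide row block and 17 with the t-test. Within 5 Mb of the Pvt1 unit the 17 lower calls became 9 with the series table, 10 with the slide row block and 9 with the t-test, and the 7 higher calls became 22 with the percentile shift, 17 with cyclic loess, 11 with the series table, 17 without masking, 2 with the slide row block and 4 with the t-test. Over the array 18.4% of tested probes were called lower and 18.9% higher with cyclic loess, and 8.98% and 1.86% with the slide row block. For the other settings the array's shares were not computed, so it is not known whether these counts moved with the array. The series table and the unmasked values also tested more probes, 45741 and 56600 on the array against 28649. The region's median change moved to 0.16 with the percentile shift. Leaving out single arrays gave 29 to 54 lower and 14 to 58 higher calls in the region, 11 to 19 and 2 to 14 within 5 Mb, and medians of -0.31 to -0.03. The highest counts of higher calls, 58 and 14, came without silenced replicate 4, the dim array, and the fewest lower calls without control replicate 4 (29) or 2 (30). The cause was not tested.

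With the replicate number as a block, 37 probes of the region were called lower and 19 higher. The deviations of same-numbered arrays correlated at -0.04, 0.19, 0.22 and 0.06, not all above 0.1, so the numbers were not taken as pairs. Of those 63 probes 41 kept their call under that block, 33 under the slide row block, 57 with cyclic loess and 37 to 62 when single arrays were left out. Probes with no value in silenced cells allow only bounds, and probes dimmer than background could not show a change.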

Other observations

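Another pair of probes carries the name of the reverse lincRNA interval chr15:61919018-61935580, inside the Pvt1 unit, but has no mapped coordinates in the files and is therefore not among the 492. Each was positive on 7 or 8 of the 8 arrays. A_30_P01027788 changed by -0.63 and A_30_P01028281 by 0.49, and neither was called by limma (adjusted p = 0.219 and 0.536).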
